A study of Mus musculus with 3 samples.

Results

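The cells described here are macrophages found in single-cell libraries that were sorted to hold endothelium and to leave out leukocytes. They were picked by their RNA, as cells with at least 10 unique molecular identifiers (UMIs, 1 count per captured RNA molecule) summed over C1qa, C1qb and C1qc, at least 2 UMIs summed over Fcer1g and Tyrobp, no UMI of Prox1 or Epcam and at most 1 of Flt1. Of 22534 cells with at least 500 genes detected and at most 15% mitochondrial UMIs, 208 met that rule. The 3 libraries are replicates of a single group, each made from the pooled small intestine without duodenum of 4 wild-type C57Bl/6 female mice aged 9 to 10 weeks. Epithelium was stripped with EDTA and DTT, the rest was digested with Liberase TL and DNase I, and live CD45-negative, CD31-positive, PDPN-positive cells were sorted in an enriched mode. No treatment was compared, so the macrophages are described within themselves and beside 2 other populations of the same libraries. These were 108 T or innate lymphoid cells, leukocytes that also passed the sort, and 16728 lymphatic endothelial cells, the population that the sort was set to keep. The labels give the source cell type as endothelial cells, and no other source of the macrophages is named there.

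Macrophages of the gut wall live mainly in the lamina propria, the muscle layer and along vessels and nerves, where they engulf dying cells and microbes, present antigen on MHC class II and feed back on epithelium, neurons and vessels. Most lamina propria macrophages are renewed from blood monocytes, which carry the receptor CCR2 and lose it as they mature, while long-lived resident macrophages are known for TIM4 (Timd4), CD163, FOLR2 and LYVE1. C1q is the recognition molecule of the classical complement pathway and is made largely by macrophages, as a complex of the chains encoded by C1qa, C1qb and C1qc. FcεRI gamma (Fcer1g) and DAP12 (Tyrobp) are adaptor proteins that carry the signal of many receptors of myeloid and natural killer cells.

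The 3 C1q genes stand side by side on the minus strand of chromosome 4 in GRCm38, with C1qb at 136880129 to 136886187, C1qc at 136889804 to 136893065 and C1qa at 136895917 to 136898803 in GENCODE M21. Their UMIs fell in almost the same proportion in every library. C1qa took 43.5%, 43.3% and 44.6% of the C1q UMIs in libraries 1, 2 and 3, C1qb took 32.3%, 32.0% and 31.3%, and C1qc took 24.2%, 24.7% and 24.1%. Because these genes chose the cells and were counted together, the bases before the start of those found in the RefSeq table of GRCm38.p6 are shown, on the gene's own strand from 5′ to 3′ and cut where the GENCODE gene begins. Capitals mark GAGGAA, a stretch that PU.1 (Spi1), a factor that myeloid cells depend on, is known to bind, or TTCCTC, the same letters on the other strand. Shorter forms such as GGAA alone were not marked or counted.
C1qb, chr4:136886201-136886450, minus strand: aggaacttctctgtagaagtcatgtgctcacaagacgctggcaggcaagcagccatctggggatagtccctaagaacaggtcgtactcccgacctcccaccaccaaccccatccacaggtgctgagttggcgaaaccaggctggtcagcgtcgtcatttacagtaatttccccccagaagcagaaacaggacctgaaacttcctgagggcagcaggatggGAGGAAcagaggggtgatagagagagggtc
C1qc, chr4:136893066-136893164, minus strand: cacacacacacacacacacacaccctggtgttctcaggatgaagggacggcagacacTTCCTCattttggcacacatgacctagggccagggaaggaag
Fcer1g, chr1:171234366-171234599, minus strand: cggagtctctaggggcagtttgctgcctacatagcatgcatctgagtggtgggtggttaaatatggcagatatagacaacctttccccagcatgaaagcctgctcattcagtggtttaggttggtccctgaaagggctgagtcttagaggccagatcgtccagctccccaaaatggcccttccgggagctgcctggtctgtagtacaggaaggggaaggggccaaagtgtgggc
The full GAGGAA was found once before C1qb, once before C1qc and not before Fcer1g. It stands on either strand in 23.3% of all 32851 RefSeq windows of 250 bases before a start, so its presence here is a description only. The stretches of C1qc and Fcer1g were cut to 99 and 234 bases, so that share is not for windows of their length. Spi1 itself was at 406, 371 and 357 CPM (counts scaled to 1e6 UMIs per class and library) in the macrophages of libraries 1, 2 and 3, against a mean of 4.56 CPM in T or innate lymphoid cells and 0.537 CPM in lymphatic cells.

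Macrophages were rare in every library, and unevenly so. Library 1 held 19 of 6359 cells (0.299%, exact 95% interval 0.180 to 0.466), library 2 held 107 of 6707 (1.60%, 1.31 to 1.92) and library 3 held 82 of 9468 (0.866%, 0.689 to 1.07). The mean share was 0.920% ± 0.650 (SD, n = 3 libraries), and the intervals of the libraries do not overlap. The sort gate can set these shares. The intervals cover counting error only, and the 3 libraries are separate pools of mice only as far as their labels go.

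The libraries held 58857545, 69231794 and 74571090 UMIs over 24541 barcodes and 32285 listed genes. A macrophage had a median of 7671.5 UMIs (868 to 27592) and 2373.5 genes, against 7381 UMIs in a lymphatic cell. The median mitochondrial share was 3.32%, 2.44% and 2.69% in macrophages of libraries 1, 2 and 3, against 1.92%, 1.72% and 1.80% in lymphatic cells. The pairs of libraries shared 19, 13 and 30 cell barcodes, none of them a macrophage in both libraries, and 1 macrophage barcode of library 2 or 3 also stood in the other of these libraries.

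Barcodes with RNA of another cell type were frequent among the macrophages. Of the 208, 67 (32.2%) had at least 2 UMIs summed over the marker list of T and innate lymphoid cells (16 cells), B and plasma cells (8), fibroblasts (20), mural cells (26), epithelium (20) or glia (1), against 7.75% of lymphatic cells. They numbered 2 of 19, 41 of 107 and 24 of 82 in the libraries. Plasma cell RNA was confined almost entirely to single barcodes, since 5 cells held 99.4% of the 19472 Igkc UMIs and 99.5% of the 2532 Jchain UMIs. Igkc was therefore at 18, 6665 and 20420 CPM in the libraries with all macrophages and at a mean of 43.1 CPM with the mixed barcodes left out. No doublet caller was run. The 2 divisions of the macrophages below were fitted with and without the mixed barcodes, while levels and shares include them except where said.

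At the edge of the rule, the 7 macrophages with 10 to 14 C1q UMIs had a median of 1286 UMIs, with Csf1r at 719 CPM and Ccl21a at 240 CPM. Just outside it, 4 cells with 5 to 9 C1q UMIs had a median of 5862 UMIs, with Csf1r at 152 CPM and Ccl21a at 4062 CPM. Over all macrophages of libraries 1, 2 and 3 the median C1q sum was 49, 110 and 59.5 UMIs.

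**Figure D1:**
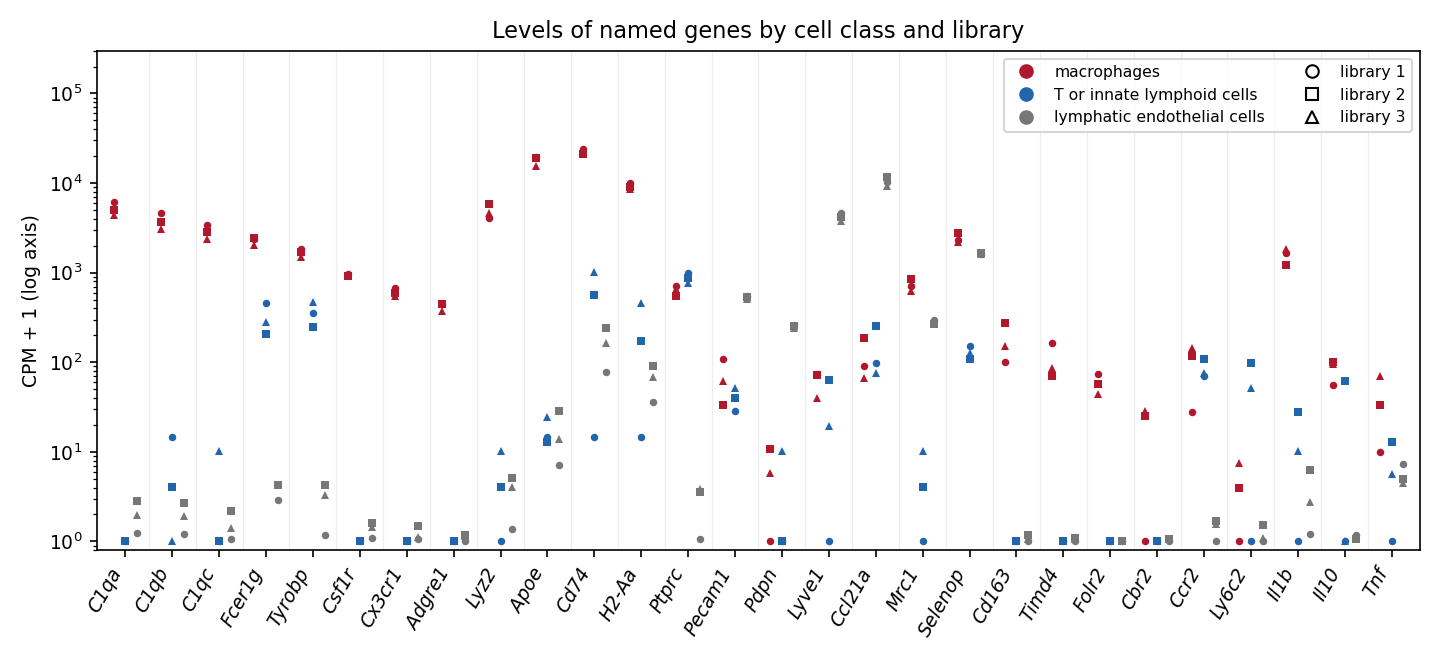
Level of 28 genes (CPM + 1, log axis) in macrophages, T or innate lymphoid cells and lymphatic endothelial cells, with 1 point per library. The first 5 genes chose the macrophages; Csf1r, Cx3cr1, Adgre1 and Lyz2 were high in macrophages of every library, and Ptprc was high in macrophages and in T or innate lymphoid cells, which it helped to choose.

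The cells carried the RNA of macrophages well beyond the rule genes. The rule genes themselves, which are no result, stood at 5193 ± 912 CPM (C1qa), 3789 ± 760 (C1qb), 2886 ± 533 (C1qc), 2270 ± 211 (Fcer1g) and 1677 ± 170 (Tyrobp; SD over 3 libraries, as for every mean below). Csf1r, the receptor for the macrophage growth factor CSF1, was at 974, 919 and 906 CPM in macrophages of libraries 1, 2 and 3, against none in T or innate lymphoid cells and a mean of 0.372 CPM in lymphatic cells. All 3 libraries were high and close together. Adgre1, the F4/80 antigen, was at 442, 450 and 375 CPM in macrophages, and Cx3cr1, the fractalkine receptor, at 667, 593 and 543 CPM. Both had no UMI in T or innate lymphoid cells and under 1 CPM in lymphatic cells. All 18 measured genes of the macrophage core list were at 20 CPM or more, among them Lyz2 (lysozyme) and Ctss (cathepsin S). Of these, 14 were at least 4-fold above lymphatic cells with no overlap between libraries (background 10.5% of 7303 genes), and 16 were so against T or innate lymphoid cells (background 11.6% of 6799 genes). None was 4-fold lower than in either population (background of lower genes 14.6% against lymphatic cells and 7.77% against T or innate lymphoid cells). These contrasts follow from how the cells were chosen and are not tested.

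Thinning every cell to 2000 UMIs left 192 macrophages and took out 16 shallower ones. A UMI of Csf1r was then seen in 80.2% of macrophages (exact 95% interval 73.9 to 85.6; 94.7% unthinned), against 0.0664% of lymphatic cells. Cx3cr1 was seen in 58.3% and Adgre1 in 54.7% of macrophages, against 0.0362% and 0.0241% of lymphatic cells. Lyz2 was found in 97.9%, and Apoe and Cd74 in each of the 192.

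Most markers of other myeloid cells were low or not seen. All 4 mast cell markers (Cpa3, Mcpt1, Mcpt2, Tpsb2) and 3 of 4 neutrophil markers (S100a8, S100a9 and Retnlg) had no UMI in the macrophages, which allows up to 1.71 CPM over the group. The fourth, Csf3r, the receptor for the growth factor G-CSF, was at 45.1, 36.0 and 27.5 CPM in macrophages, against none in T or innate lymphoid cells and a mean of 0.0340 CPM in lymphatic cells. Of 6 dendritic cell markers (Flt3, Xcr1, Clec9a, Zbtb46, Cd209a, Ccr7), none reached 20 CPM, and their sum was 25.9 to 36.1 CPM per library, against 29.8 to 39.8 CPM in lymphatic cells. By these markers the cells matched their label. A gate for myeloid cells low in C1q found 22 further cells in all, 4, 12 and 6 in the libraries, too few for a comparison.

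CD45 is the protein on which the sort was negative, and the macrophages carried its RNA. Ptprc, the gene of CD45, was at 703, 551 and 663 CPM in macrophages (mean 639 ± 78.8), against a mean of 882 CPM in T or innate lymphoid cells and 1.83 CPM in lymphatic cells. T or innate lymphoid cells were picked with at least 1 Ptprc UMI, which raises their level, so no order between them and the macrophages is read from these values. Every library of macrophages lay far above the lymphatic cells. After thinning, 68.8% of macrophages (61.7 to 75.2; 91.3% unthinned) had a Ptprc UMI, against 0.157% of lymphatic cells. RNA does not show how much CD45 stood on the surface.

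The proteins on which the sort was positive were poorly represented in macrophage RNA. Pecam1, the gene of CD31, was at 108, 32.1 and 61.5 CPM in macrophages, against a mean of 39.3 CPM in T or innate lymphoid cells and 527 CPM in lymphatic cells. Pdpn was at 0, 9.74 and 4.85 CPM in macrophages, against a mean of 252 CPM in lymphatic cells. To read such levels, the RNA of 12 genes of lymphatic endothelium was taken as a gauge of how much lymphatic RNA a macrophage barcode held. Their level in macrophages was 0.278% to 1.74% of that in lymphatic cells, with a median of 1.01% over genes. Ccl21a, a chemokine of lymphatic vessels and their most abundant marker here, stood at 0.882%, 1.59% and 0.706% of the lymphatic level in macrophages of the 3 libraries.

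Lyve1 lay within the range of that gauge, whereas Mrc1, Stab1 and Pecam1 lay above it. Lyve1, a hyaluronan receptor of lymphatic vessels and of some resident macrophages, was at 72.1, 71.1 and 38.8 CPM in macrophages, against a mean of 4219 CPM in lymphatic cells. This was 1.42% ± 0.363 of the lymphatic level, within the range of the 12 genes but above their median of 1.01%. By library it was 1.54%, 1.71% and 1.02% in macrophages, against 0%, 1.52% and 0.488% in T or innate lymphoid cells. The gauge is too wide to tell a low level of Lyve1 in macrophages from lymphatic RNA, so neither is concluded. Mrc1, the mannose receptor CD206, was at 703, 845 and 616 CPM in macrophages and a mean of 277 CPM in lymphatic cells, or 261% ± 45.7 of the lymphatic level. Stab1, a scavenger receptor of both cell types, stood at 27.0% ± 6.44, and Pecam1 at 12.7% ± 6.92, with 6.07% to 19.9% between libraries, against 7.52% in T or innate lymphoid cells. Pdpn, at 1.95% ± 1.92, was not separable from the gauge.

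**Figure D2:**
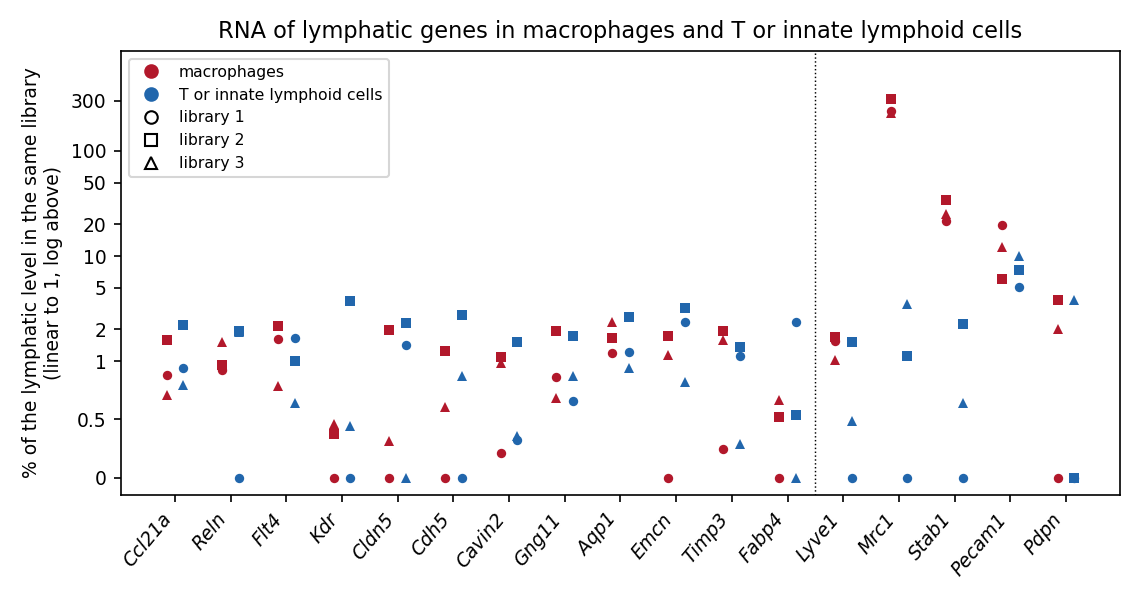
RNA of lymphatic genes in macrophages and in T or innate lymphoid cells, as a percentage of the level in lymphatic cells of the same library (linear below 1, log above), with 1 point per library. The 12 genes left of the dotted line are the gauge; Lyve1 lies with them, and Mrc1 lies at 231% or more in all 3 libraries of macrophages.

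Genes of antigen presentation by MHC class II were abundant in the macrophages and summed to 48973 CPM, with an SD of 2441 over the libraries. Cd74, the invariant chain, was at 23759, 21296 and 21767 CPM, and H2-Aa, H2-Ab1 and H2-Eb1, chains of the peptide-binding molecules, averaged 9158 ± 700, 8164 ± 410 and 7574 ± 468 CPM. In lymphatic cells, Cd74 averaged 161 CPM. H2-DMa and H2-DMb1, which load peptide, averaged 754 ± 64.5 and 568 ± 47.2 CPM, and Ciita, the master regulator of the group, 163 ± 23.7 CPM. The co-stimulatory ligands Cd86, Cd40 and Cd80 averaged 149 ± 27.9, 76.9 ± 35.1 and 57.9 ± 13 CPM. All 11 genes of the list at 20 CPM or more were at least 4-fold above both other populations, with no overlap between libraries. Over all genes this share was 10.5% against lymphatic cells and 11.6% against T or innate lymphoid cells.

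Genes of engulfment and digestion followed. Among 19 measured phagocytic and scavenger receptors, 17 were at 20 CPM or more, with the Fc receptors Fcgr3, Fcgr4 and Fcgr2b at 492 ± 30.8, 427 ± 99.1 and 341 ± 78.3 CPM. Axl, a receptor for dying cells, averaged 194 ± 24.2 CPM, and Marco and Tyro3 had no UMI. Of 22 genes of lysosomes and proteases, 21 were at 20 CPM or more, led by Psap (prosaposin, 3236 ± 657 CPM), Ctsb (cathepsin B, 2307 ± 119) and Ctss (1742 ± 392). Ctsb was also at 649 CPM in lymphatic cells, while Ctss was at 2.61 CPM there. Apoe, the apolipoprotein with which macrophages export lipid, was at 19431, 19170 and 15496 CPM, against means of 16.4 CPM in T or innate lymphoid cells and 15.6 CPM in lymphatic cells. Fth1 and Ftl1, the ferritin chains that store iron, averaged 9992 ± 314 and 4119 ± 111 CPM, and Hmox1, which degrades haem, 107 ± 37.8 CPM.

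Outside C1q, complement genes included the anaphylatoxin receptors C3ar1 (389 ± 36.5 CPM) and C5ar1 (220 ± 4.67 CPM) and Cfp, properdin (298 ± 63.4 CPM). The chemokine list was led by Pf4 (1408 ± 431 CPM), Ccl8 (1239 ± 834) and Cxcl2 (1141 ± 125). Ccl8, which attracts monocytes and lymphocytes, was the most uneven of these, at 992, 2169 and 556 CPM in the libraries, and 5 cells held 31.9% of its 2681 UMIs. Ccl4, another chemokine of the list, averaged 981 ± 186 CPM in macrophages, against 262 CPM in T or innate lymphoid cells.

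Il1b was the highest of the cytokine genes. This inflammatory cytokine was at 1668, 1228 and 1855 CPM, and 61.5% of macrophages had a UMI after thinning, against 0.157% of lymphatic cells. Il10, the cytokine that restrains macrophages, was at 54.1, 100 and 93.8 CPM and was seen in 12.5% (8.18 to 18), against 0.0181% of lymphatic cells. Of 118 macrophages with Il1b after thinning, 21 (17.8%) also had Il10, against 3 of 74 (4.05%) without Il1b. Tnf was at 9.02, 32.1 and 69.5 CPM, and Il23a had no UMI. Of factors that act on vessels and tissue, Mmp9, a gelatinase, averaged 538 ± 123 CPM, Igf1 169 ± 23.5 CPM and Bmp2, which muscle macrophages are known to signal with to enteric neurons, 87.7 ± 60.4 CPM. Bmp2 was at 18 CPM in library 1, against 119 and 126 CPM in the others. Vegfc, the growth factor of lymphatic vessels, had no UMI in the macrophages.

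Genes that cells induce quickly on handling were present in the macrophages too. Fos, Jun and Junb, early response transcription factors, averaged 1559 ± 117, 1039 ± 20.4 and 2275 ± 116 CPM, against 5381, 3354 and 3234 CPM in lymphatic cells. Of 21 genes of this list none was 4-fold higher in macrophages than in lymphatic cells, and 2 were 4-fold lower, against 10.5% higher and 14.6% lower over all genes. Compared with T or innate lymphoid cells, 10 of the 21 were 4-fold higher and none lower. Over all genes these shares were 11.6% and 7.77%. Of 16 measured interferon-response genes, 2 were 4-fold higher and 2 lower than in lymphatic cells, near the shares over all genes. Of 15 tested against T or innate lymphoid cells, 5 were 4-fold higher and none lower. Cell cycle genes were seen in all libraries, and their 4 markers summed to 469, 76.9 and 205 CPM, against 68.5, 91.9 and 59.2 CPM in lymphatic cells. The highest sum belongs to library 1, which holds 19 macrophages.

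Markers of long-lived resident macrophages were each found on a minority of the thinned cells, with partial overlap between markers. Cd163, a haemoglobin scavenger receptor, was at 99.2, 271 and 150 CPM, and was seen in 25% of the thinned macrophages (19.0 to 31.7). Timd4, a receptor for phosphatidylserine on dying cells, was at 162, 70.1 and 85.7 CPM and was seen in 13.5% (9.04 to 19.2). Folr2, a folate receptor, was seen in 6.25% (3.27 to 10.7) and Cbr2, a carbonyl reductase, in 5.21% (2.53 to 9.37), with no Cbr2 UMI in library 1. In lymphatic cells all 4 were seen in at most 0.0241%. Timd4 was seen in 12 of 48 macrophages with Cd163 (25%), and in 14 of 144 without it (9.72%). Folr2 and Timd4 were together in 1 cell.

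Of 12 genes in the list of monocytes and early monocyte-derived cells, 5 were at 20 CPM or more in macrophages and 5 had no UMI. Of 5 genes tested against lymphatic cells 2 were at least 4-fold higher, and of 7 against T or innate lymphoid cells 1 was. Over all genes these shares were 10.5% and 11.6%. In each comparison 1 gene was at least 4-fold lower, against 14.6% and 7.77% of all genes. The list was led by Thbs1, thrombospondin, at 631, 269 and 542 CPM in macrophages, against none in T or innate lymphoid cells and a mean of 634 CPM in lymphatic cells. Plac8 was at 18, 107 and 163 CPM in macrophages, against a mean of 442 CPM in T or innate lymphoid cells and 18 CPM in lymphatic cells. Ccr2, the receptor of incoming monocytes, was at 27.0, 116 and 142 CPM in macrophages, and Ly6c2, a surface marker of classical monocytes, at 0, 2.92 and 6.47 CPM. After thinning, a Ccr2 UMI was seen in 21 macrophages (10.9%, 6.90 to 16.2; 17.3% unthinned), against 12.3% of T or innate lymphoid cells and 0.0483% of lymphatic cells. Ly6c2 was seen in 1 of the thinned macrophages (1.92% of all 208 unthinned). None of the 21 cells with Ccr2 had a Cd163 UMI, against 48 of 171 cells (28.1%) without Ccr2. The 0 of 21 allows a share of up to 14.3% of cells with a Cd163 UMI at 2000 UMIs per cell. It does not limit the share that expresses the gene, since Cd163 was seen in 40.4% of macrophages unthinned. Genes with no UMI included Chil3, Ace and Hp.

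The macrophages were then divided in 2 ways, each within a library, and UMIs were summed per library and division. The edgeR quasi-likelihood test with Benjamini-Hochberg adjustment compared the sums, with the library as a block. Library 1 had 15 macrophages of at least 2000 UMIs and fell under the minimum of 10 cells in each division, so the tests rest on libraries 2 and 3, with 4 sums. That leaves few degrees of freedom among samples, and the counts of genes called moved widely with the setting. Values of library 1 are given beside the test, which did not use them. Genes named by rule had to have the same sign in all 3 libraries, so their agreement between libraries is no separate support.

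The first division was by resident markers. Marked cells had at least 1 UMI of Folr2, Cd163, Timd4 or Cbr2 after thinning, and these 4 genes were not tested. There were 75 marked cells of 192 (39.1%), namely 3 of 15, 36 of 99 and 36 of 78 in libraries 1, 2 and 3. Of 4730 genes tested, 33 were higher in marked cells (0.698%) and 37 lower (0.782%), or 1.48% in all. By DESeq2, or by edgeR without the library as a block, no gene was called higher in marked cells.

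Ccr2 was lower in marked macrophages, and Cd209f and Slc40a1 were higher. Of 16 phagocytic and scavenger receptors tested 1 was called higher (Mrc1) and of 10 iron and haem genes 1 (Slc40a1), with none lower in either list. Ccr2 was at 0, 25.2 and 16.4 CPM in marked cells of libraries 1, 2 and 3, against 37.7, 167 and 228 CPM in unmarked cells. Marked cells were lower in every library and the ranges did not overlap (log2 fold change -3.24 ± 0.36 SE, edgeR adjusted p = 9.12e-16, lower in 3 of 3 libraries). In library 1 the marked class was 3 cells with 25574 UMIs in all, so its 0 CPM rests on few UMIs and adds little. By edgeR the adjusted p of Ccr2 was 0.00501 without the library as a block and 0.281 with mixed barcodes left out. DESeq2 gave it an adjusted p of 0.0169. Cd209f, a lectin receptor of the DC-SIGN family, was at 196, 288 and 41.0 CPM in marked cells, against 0, 34.9 and 5.42 CPM in unmarked cells (log2 fold change 2.94 ± 0.38, edgeR adjusted p = 7.95e-12). Slc40a1, ferroportin, the exporter of iron, was at 235, 104 and 94.3 CPM in marked cells, against 75.5, 22.8 and 13.6 CPM in unmarked cells (2.29 ± 0.41, edgeR adjusted p = 6.78e-06). Within each library marked cells were the higher for both genes. With mixed barcodes left out Cd209f stood at 2.25 and Slc40a1 at 1.65, and neither was called. Reads of the near-identical Cd209 genes can be shared between them, so the level of Cd209f is uncertain.

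Of the resident macrophage list, 9 genes outside the 4 markers passed the filter on low counts. Of these, 6 were higher in marked cells and none lower, against 0.698% and 0.782% of all genes tested. None of the 6 was called higher by DESeq2 or by edgeR without the library as a block. The median log2 fold change of the 9 was 0.93, against -0.02 over all genes tested. Selenop, the selenium carrier, was at 3910, 4213 and 3178 CPM in marked cells, against 1887, 1983 and 1523 CPM in unmarked cells (0.97 ± 0.15, edgeR adjusted p = 2.42e-08). F13a1, a coagulation transglutaminase, was at 39.1, 336 and 82.0 CPM in marked cells, against 0, 69.9 and 29.8 CPM in unmarked cells (1.93 ± 0.31, edgeR adjusted p = 2.50e-07). Both were higher in marked cells of each library, although F13a1 ranges overlapped between libraries. The 39.1 CPM of F13a1 in library 1 comes from 3 marked cells with 25574 UMIs in all, and adds little. Mrc1 was higher by 0.83 ± 0.19 on the log2 scale, Pf4 by 0.67 ± 0.16 and Gas6, a bridge to dying cells, by 0.94 ± 0.27. Selenop, F13a1 and Gas6, and Bmp2 and Mmp9 below, were singled out after their values were seen.

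Of 17 growth and vessel factors tested, 4 were higher in marked cells and none lower, against 0.698% higher and 0.782% lower over all genes. Igf1 was at 235, 350 and 267 CPM in marked cells, against 138, 112 and 78.6 CPM in unmarked cells (1.59 ± 0.28, edgeR adjusted p = 4.39e-06), with no overlap. Mmp9 was higher by 1.28 ± 0.22 and Bmp2 by 1.17 ± 0.28. In the lysosome list 1 of 21 genes, Ctsd (cathepsin D), was called higher (1.17 ± 0.24). Il1b (-0.64 ± 0.16) and Fabp5, a fatty acid binding protein (-1.32 ± 0.39), were lower in marked cells. None of the 10 MHC class II genes tested was called, nor any of 11 genes of the mature lamina propria list, whose median was -0.43.

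Outside the lists, the genes called by the naming rule were Ltc4s (1.48 ± 0.28), which makes leukotriene C4, Chp2 (1.91 ± 0.39), Ppp1r9a (3.37 ± 0.73), Cmah (2.48 ± 0.54) and Engase (2.34 ± 0.63) on the higher side. On the lower side they were Tent5c (-1.40 ± 0.32), Chchd10 (-2.32 ± 0.55), Csrp1 (-1.31 ± 0.33), Crip2 (-2.04 ± 0.53) and Stmn1 (-1.68 ± 0.44). Hspa1a was higher by 1.11 ± 0.24, with reads that its near-identical copy Hspa1b can share. It was 1 of 2 genes of 21 called higher in the immediate early and heat shock list, with Ier3, and 18 of the 21 had a positive log2 fold change, with a median of 0.20. With mixed barcodes left out none of 19 was called, 13 were positive and the median was 0.32. Several of the 37 lower genes belong to other cell types, among them Jchain, Mzb1, Des and Acta2. The 4 B and plasma cell markers summed to 0 to 5.60 CPM in marked cells and to 12.6 to 5209 CPM in unmarked cells, with Mzb1, Cd79a and Iglc2 at 0 in marked cells. The 4 mural markers summed to 77.9 to 196 CPM in marked cells and to 0 to 908 CPM in unmarked cells. Mixed barcodes made up 33.3% of marked and 35.0% of unmarked cells.

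**Figure D3:**
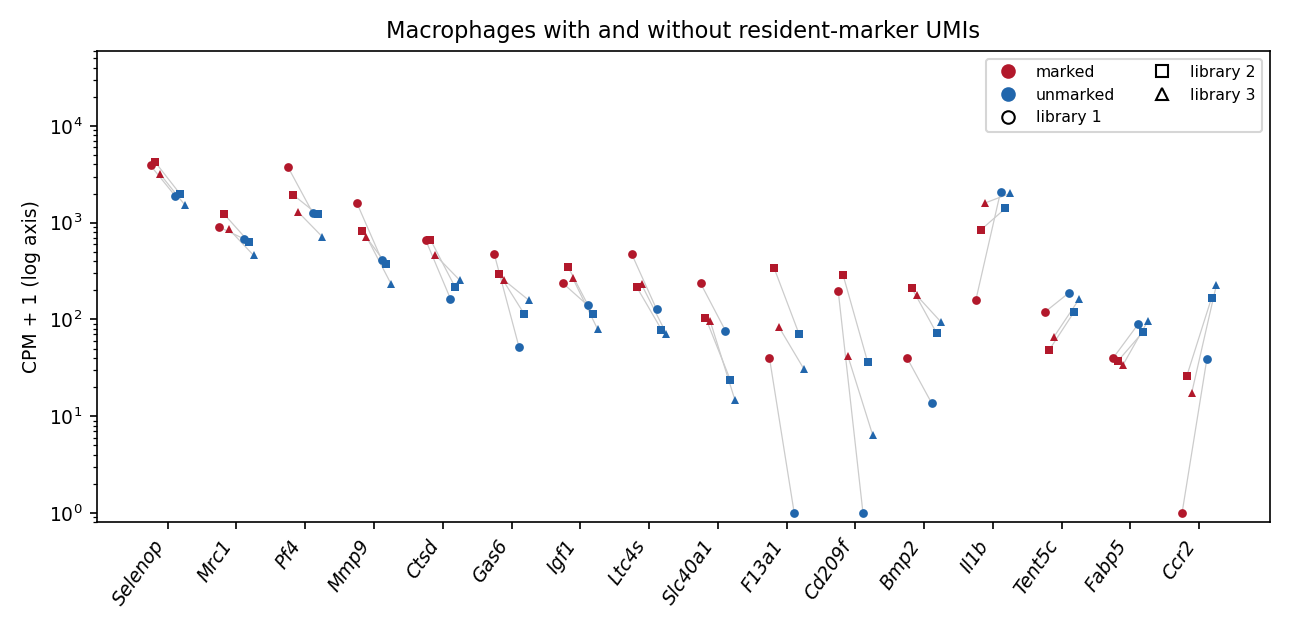
Level of 16 genes (CPM + 1, log axis) in marked and unmarked macrophages of each library, lines joining the values of a library. Selenop, Igf1, Slc40a1 and Cd209f were higher in marked cells, and Ccr2 lower, in each of the 3 libraries, although library 1 has only 3 marked cells.

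The calls of this division depend on the cells and libraries that enter. With mixed barcodes left out no gene was called by edgeR, with 164 at an unadjusted p under 0.05. With all cells DESeq2 called 4 genes, and edgeR without the library as a block called 1, all of them lower in marked cells. With all 3 libraries, at a minimum of 3 cells, 13 of 4098 genes were called (0.317%), 11 higher (0.268%) and 2 lower (0.0488%), and 12 of the 13 were also called with libraries 2 and 3. Without library 2 none was called (114 at an unadjusted p under 0.05) and without library 3, 3 were. Of the 21 genes named by rule, all 17 that could be fitted with all 3 libraries and all 13 with mixed barcodes left out kept their sign. Ccr2 stood at -3.26 and -3.42 in these fits, Selenop at 0.96 and 0.96, and F13a1 at 1.95 and 1.95. The naming rule asked for the same sign in all 3 libraries, so the sign with all 3 was built in. The fit without mixed barcodes reuses cells of the main fit.

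The second division was by MHC class II RNA. The summed UMIs of H2-Aa, H2-Ab1, H2-Eb1 and Cd74 ranged from 7 to 189 per 2000 UMIs of a cell, with a median of 98 and quartiles of 72.75 and 119.25. The medians of libraries 1, 2 and 3 were 110, 94 and 98, and every cell had at least 7. Cells above their library's median, 95 in all, had medians of 117 and 119 UMIs in libraries 2 and 3, against 69.5 and 77 in the other 97. Resident-marked cells formed 32 of the 95 MHC-II-high cells (33.7%) and 43 of the 97 MHC-II-low cells (44.3%). By library the shares were 28.6% (2 of 7) against 12.5% (1 of 8) in library 1, 24.5% against 48.0% in library 2 and 46.2% against 46.2% in library 3.

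**Figure D4:**
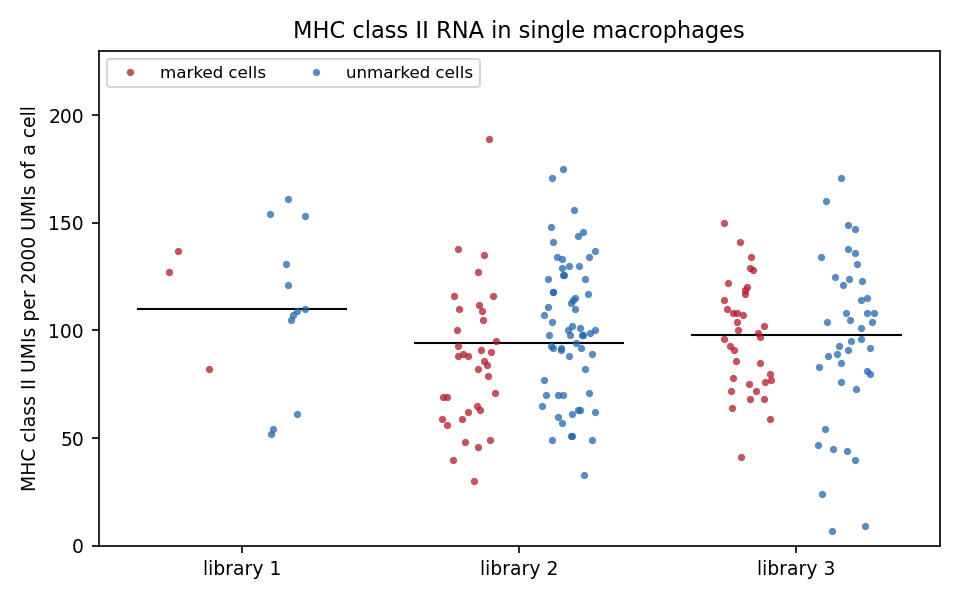
MHC class II UMIs (H2-Aa, H2-Ab1, H2-Eb1 and Cd74) per 2000 UMIs of each of 192 macrophages by library, split into marked and unmarked cells, with a line at the library's median. The medians lie at 110, 94 and 98, and marked and unmarked cells overlap over nearly the whole range.

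Of 4983 genes tested, 54 were higher in MHC-II-high macrophages (1.08%) and 106 lower (2.13%), or 3.21% in all. Many of the lower genes mark other cell types, such as Col3a1 and Col1a1 of fibroblasts, Acta2 of mural cells and Trac and Cd3g of T cells. Mixed barcodes made up 24.2% of MHC-II-high and 44.3% of MHC-II-low cells. The 4 fibroblast markers summed to 0 to 43.6 CPM per library in MHC-II-high cells and to 0 to 1631 CPM in MHC-II-low cells, and Pdgfra was at 0 in the MHC-II-high cells. The 7 T and innate lymphoid markers summed to 0 to 8.73 CPM in MHC-II-high cells, with Cd3d, Cd3e, Cd7 and Nkg7 at 0, and to 172 to 256 CPM in MHC-II-low cells. Nkg7, Gimap4 and Il2rb, genes of lymphocytes, had no UMI in the MHC-II-high cells. In MHC-II-low cells of libraries 2 and 3 there were 34 and 10 UMIs of Nkg7, 23 and 19 of Gimap4, and 21 and 18 of Il2rb. With the mixed barcodes left out, 45 of 3204 genes were called (1.4%), 18 higher (0.562%) and 27 lower (0.843%), and 14 were called in both fits. All 3 of these lymphocyte genes then fell under the filter on low counts.

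Some genes were called both with and without the mixed barcodes, although not all of them in every other setting. Dnase1l3, a secreted nuclease that digests DNA of dying cells, was at 806, 635 and 633 CPM in MHC-II-high cells of libraries 1, 2 and 3, against 541, 303 and 257 CPM in MHC-II-low cells. The ranges did not overlap, and all 3 libraries had it higher in MHC-II-high cells (log2 fold change 1.17 ± 0.16, adjusted p = 0.000405 by edgeR, and 0.82 with mixed barcodes left out). Ctss, the protease that trims the invariant chain, was at 2417, 2084 and 1920 CPM in MHC-II-high cells, against 1906, 1134 and 1083 CPM in MHC-II-low cells (0.85 ± 0.15, edgeR adjusted p = 0.00227). Apoe was at 26185, 25039 and 20109 CPM in MHC-II-high cells, against 15719, 14452 and 11796 CPM in MHC-II-low cells (0.78 ± 0.14, edgeR adjusted p = 0.00325). All 3 libraries of MHC-II-high cells exceeded all of MHC-II-low cells for both genes. C1qb was called in both fits too, but its UMIs chose the cells, so this is no result. With cells thinned to 2000 UMIs Apoe kept its call, but Dnase1l3 and Ctss did not (edgeR adjusted p = 0.318 and 0.216).

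On the other side, Irf1, an interferon-induced transcription factor, was at 115, 133 and 200 CPM in MHC-II-high cells, against 299, 312 and 287 CPM in MHC-II-low cells (-0.90 ± 0.20, edgeR adjusted p = 0.0165). Igf1 was at 115, 118 and 120 CPM, against 185, 260 and 181 CPM (-0.91 ± 0.21, edgeR adjusted p = 0.0195). Neither gene overlapped between the divisions. Irf1 and Igf1 were called without the mixed barcodes, but not with all 3 libraries (edgeR adjusted p = 0.0511 and 0.0783). Nor were they called by DESeq2 or without the library as a block, and Irf1 was not called with thinned cells. Bmp2 (-0.96 ± 0.24 on the log2 scale) and Cd209f (-1.29 ± 0.32) were lower in libraries 2 and 3, but not in library 1, where both were higher in MHC-II-high cells. Both were singled out after their values were seen.

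Over all genes, 1.08% were higher and 2.13% lower, and 0.562% and 0.843% with mixed barcodes left out. By list, 6 of 18 macrophage core genes were higher and none lower, with a median log2 fold change of 0.39 against -0.00087 over all genes. With mixed barcodes left out 1 core gene was called, with a median of 0.21. As said above, the division itself can set the direction of the core genes. Of 16 resident list genes tested, 2 were lower and none higher, with a median of -0.68, and with mixed barcodes left out 5 of 12 were lower, with a median of -0.80. These 5 were Cd163, Folr2, Cd209f, Maf and Selenop. Of 7 MHC class II genes outside the 4 that made the division, H2-DMa and H2-DMb1 were higher and none lower, with a median of 0.70, and none of 6 was called with mixed barcodes left out. Of 15 interferon-response genes, 2 were lower (Irf7 and Irf1), and with mixed barcodes left out 1 of 11 was (Irf1). Of 21 lysosome genes 3 were higher (Ctsz, Ctss and Ctsh) and none lower. With mixed barcodes left out 2 of 20 were higher (Ctss and Cd63) and 1 was lower (Ctsd). Of 21 immediate early and heat shock genes, those that cells induce quickly on handling, none was called and 5 had a positive log2 fold change, with a median of -0.17. With mixed barcodes left out 3 of 20 were lower in MHC-II-high cells (Zfp36, Klf6 and Dusp1), 2 had a positive log2 fold change and the median was -0.36. The part of handling in this division was not tested.

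Further genes named by rule lost their call without the mixed barcodes. Higher ones were Pla2g2d (1.34 ± 0.20), a secreted phospholipase, Pilra (1.30 ± 0.24), Itgam (1.00 ± 0.19), the CD11b integrin, Gm34084 (1.38 ± 0.28), H2-DMb1 (0.75 ± 0.16), Cxcl16 (0.71 ± 0.16), Csf2ra (0.89 ± 0.20), Cd14 (0.69 ± 0.16), Fcgr4 (0.70 ± 0.17), Runx3 (0.70 ± 0.18) and Spint1 (1.41 ± 0.37). Lower ones were C3 (-3.62 ± 0.24), Ccl5 (-3.25 ± 0.23) and Sept1 (-4.71 ± 0.83). C3, the central complement component, was at 28.8, 19.6 and 58.2 CPM in MHC-II-high cells, against 71.1, 260 and 684 CPM in MHC-II-low cells, and at a log2 fold change of -0.21 with mixed barcodes left out. Ccl5 and Sept1 then fell under the filter.

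With all 3 libraries, at a minimum of 3 cells, 33 of 3949 genes were called (0.836%), 10 higher (0.253%) and 23 lower (0.582%), and without library 2 or without library 3, 9 and 12 were. DESeq2 called 30 genes with libraries 2 and 3. Of the 23 genes named by rule, all 20 that could be fitted with all 3 libraries and all 17 with mixed barcodes left out kept their sign. As in the resident division, the naming rule built in the sign with all 3 libraries, and the fit without mixed barcodes reuses cells.

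**Figure D5:**
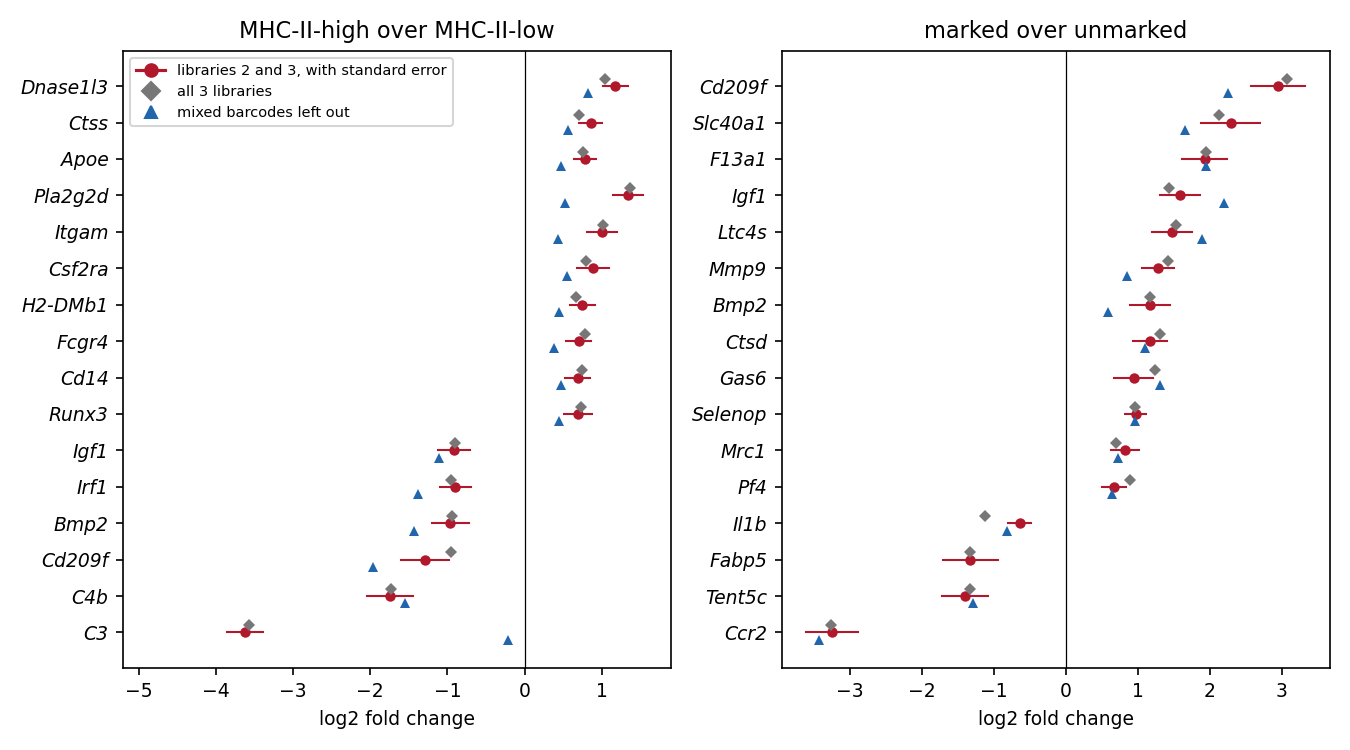
Log2 fold change of 16 genes of each division, MHC-II-high over MHC-II-low and marked over unmarked macrophages. Circles with bars (1 standard error) are the fits to libraries 2 and 3, diamonds the fits to all 3 libraries and triangles those without mixed barcodes, where the gene could be fitted; C3 lies at -3.62 with and at -0.21 without mixed barcodes, and Ccr2 at -3.24 and -3.42.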

How the data were processed

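Raw UMI counts per gene and barcode were taken as the authors deposited them, for 3 libraries of a 3′ single-cell kit (v3, per the labels' protocols). Reads were demultiplexed with bcl2fastq 2.2 and counted with Cell Ranger 6.1.2 on mm10, per the submitters' processing notes; the annotation release was not given in the sources used here. Genes with near-identical copies can lose or share reads in such counting.

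Cells with under 500 genes or over 15% mitochondrial UMIs were left out. The macrophages and every gene list were chosen with earlier results of these data known. Lymphatic cells had at least 2 UMIs of Prox1, and T or innate lymphoid cells at least 1 of Ptprc and 3 of Cd3d, Cd3e, Cd3g, Cd7 and Il7r. Levels are CPM over all UMIs of a class in a library. Thinning to 2000 UMIs drew without replacement at a fixed seed, and intervals are exact binomial (Clopper-Pearson, 95%). They cover counting error only.

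Sums per library and division were tested with edgeR 4.0.16 (filterByExpr, TMM, glmQLFit robust, glmQLFTest, library as block, Benjamini-Hochberg threshold 0.05), with DESeq2 1.42.0 as an alternative. In the labels nothing shows separate animals beyond the pools, so p-values refer to these sums only. With 4 sums and few degrees of freedom, edgeR draws each gene's variance in part from that of other genes. A very small p-value is therefore not evidence from many replicates. The block pairs the sums of 1 library, which come from the same pool. A library was to enter with at least 10 cells in each division, and library 1 did not. On counts simulated from the main sums the test found 94.9% of genes changed by 2 on the log2 scale in the MHC class II division (99 genes) and 91.7% in the resident division (96 genes), and 28.3% and 18.3% of those changed by 1. It also called unchanged genes. In the MHC class II division these were 13 of 4527, beside 94 and 26 found of those changed by 2 and by 1. In the resident division they were 11 of 4234, beside 88 and 17. Standard errors (SE) are approximate, the log2 fold change over the root of the F statistic. Named genes were past the threshold, had the same sign in all 3 libraries and at least 20 CPM in the higher division. They were the largest change in each direction of each list, and the 5 largest in each direction outside the lists, at most 30 per division. Genes outside that rule are said to be so. A few genes are counted but not reported here by name. Scripts ran in Python 3.11.15 and R 4.3.3.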

Additional observations from a re-analysis of the deposited data

How the results depend on the processing

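The counts of genes called in both divisions moved by over 1.5 times under most settings, and each rests on 2 libraries. For the MHC class II division, where 160 genes were called, the count was 73 with no replicate block, 30 with DESeq2, 437 with no filter on low counts, 19 with cells thinned to 2000 UMIs, 45 with mixed barcodes left out, 272 at a mitochondrial limit of 10%, and 33 with all 3 libraries. Leaving out a library gave 9 to 160. For the resident-marker division, where 70 genes were called, the count was 1 with no replicate block, 4 with DESeq2, 108 with no filter, 4 with thinned cells, 23 at a C1q minimum of 20 UMIs, 0 with mixed barcodes left out, 45 at a mitochondrial limit of 10%, 107 when marked cells needed 2 UMIs, and 13 with all 3 libraries. Leaving out a library gave 0 to 70. The fits with all 3 libraries, and those without library 2 or 3, were chosen after seeing the data; without library 1 the fit is the main one, as that library did not enter it. The cause of these moves was not tested. No fitted log2 fold change of a gene named by rule changed sign in any setting that gave it a value. The naming rule asked for the same sign in all 3 libraries, so this was largely set in advance. Of 292 fitted values of genes named by rule in the MHC class II division, 189 kept their side of the threshold, and of 255 in the resident division, 135. Of those kept, 23 and 21 come from the fit without library 1, which repeats the main fit and could not differ. Of 208 values of gene levels, 201 moved by less than 1 SD. Leaving out 1 of 3 libraries cannot move a mean that far, so the values from those settings are no check. With 208 macrophages, a gene with no UMI may still lie at up to 1.71 CPM.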
